A study of Homo sapiens with 4 samples.

Results

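The genes described here are the numbered ZNF genes of human chromosome 19, most of which encode proteins with arrays of classical zinc fingers. They were chosen by name and place: the symbol starts with ZNF and a digit, and the deposited locus lies on chromosome 19 (hg19). The rule gave 251 genes of 23165 in the joined tables, and all 251 had counts. They include pseudogene entries such as ZNF826P and read-through entries such as ZNF559-ZNF177. An open reading frame from a coding transcript was found for 242, and 2 members had one without a finger. The mRNA of 4 established precursor-B leukemia lines was sequenced, 1 library each. The t(4;11) group was RS4;11 and SEM, in which this translocation rearranges the histone methyltransferase gene MLL, and the control group was NALM6 and REH, which lack it (n = 2 lines per group). All 4 were grown to below confluency in RPMI with 10% fetal bovine serum, and the labels name no drug. Each line comes from a different patient's leukemia, so a difference between groups includes every other difference between these lines, and each line stands for itself alone.

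Most genes of this family encode KRAB zinc finger proteins. The fingers read a DNA sequence, and the KRAB domain recruits the corepressor TRIM28, which brings the histone methyltransferase SETDB1 and heterochromatin proteins to the bound site. Many members bind transposable elements. The family grew by tandem duplication, which left long rows of related genes on chromosome 19, and in many tumours some of these genes are found switched off with a methylated promoter.

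Library totals ran from 33,620,574 counts in SEM to 84,212,986 in REH, with 51,872,617 in RS4;11 and 44,849,858 in NALM6. Where 4 values follow each other they are in the order RS4;11, SEM, NALM6 and REH. Levels are CPM, counts scaled to a common library total, and 1 CPM was between 33.6 counts (SEM) and 84.2 counts (REH). A count of 0 allows up to 3 counts, which is 0.0578, 0.0892, 0.0669 and 0.0356 CPM in the 4 libraries. These limits cover counting error only. Of 10 precursor-B markers, 9 were at 1 CPM or more in every line, while VPREB1, a surrogate light chain gene, stood at 0.226 CPM in REH. The 4 T-cell markers and 3 erythroid markers were under 0.1 CPM in every line. The 4 myeloid markers summed to between 8.56 CPM (NALM6) and 39.8 CPM (REH), and the 3 stromal and epithelial markers to between 0.245 CPM (NALM6) and 4.16 CPM (SEM); their part in the results below was not tested.

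Most chromosome 19 ZNF genes were expressed in every line. Of the 251, 175 had 1 CPM or more in all 4 lines and 17 had under 0.1 CPM in all 4, of which 6 had no count in any library (ZNF826P, ZNF676, ZNF729, ZNF98, ZNF99 and ZNF229). Another 31 were under 0.1 CPM in at least 1 line and at 1 CPM or more in at least 1 other. That is 13.7% of the 226 members that reached 1 CPM anywhere, beside 13% of all genes that did, so the share of genes switching between these states was near the background. By line, 17 members were low in RS4;11 (7.52%, beside 5.36% of all genes), 7 in SEM (3.10%, beside 4.11%), 2 in NALM6 (0.885%, beside 7.97%) and 18 in REH (7.96%, beside 4.97%). The other 28 lay between the thresholds in some line. The summed level of all members was 4469, 4820, 5240 and 4429 CPM in the 4 lines, or 0.443% to 0.524% of a library. NALM6 expressed the most members at 1 CPM or more, 220, against 211 in SEM and 197 each in RS4;11 and REH. For some entries that share a deposited locus, counts and the authors' Cuffdiff FPKM (a level per length) disagree. ZNF177, 1 of the 17, had 1 count in SEM and 0 elsewhere, but 2.73 FPKM with t(4;11) and 2.57 without. ZNF20 had 0.0950 to 0.580 CPM, but 3.13 and 3.57 FPKM in the same order. A low count of such an entry does not show that the gene is unexpressed.

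Read in genomic order, 237 members fell into 10 clusters, defined as runs of at least 5 members with no gap over 500 kb, and 14 lay outside them. The largest were ZNF264 to ZNF446 at the end of the long arm (43 members, 57702868 to 58992597, hg19), ZNF175 to ZNF331 (42 members, 52074531 to 54083523) and ZNF101 to ZNF254 on the short arm (34 members, 19779663 to 24312654). Others were ZNF653 to ZNF791 (28 members), ZNF146 to ZNF573 (26), ZNF575 to ZNF180 (22), ZNF628 to ZNF835 (17), ZNF414 to ZNF846 (15), ZNF302 to ZNF792 (5) and ZNF554 to ZNF77 (5). No cluster was silent as a whole in any line. In the heat map of clusters the dark cells mostly stand singly or in short stretches between expressed neighbours. A longer dark stretch, from ZNF43 to ZNF99, holds 8 members in RS4;11, and parts of it are dark in the other lines too.

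**Figure D1:**
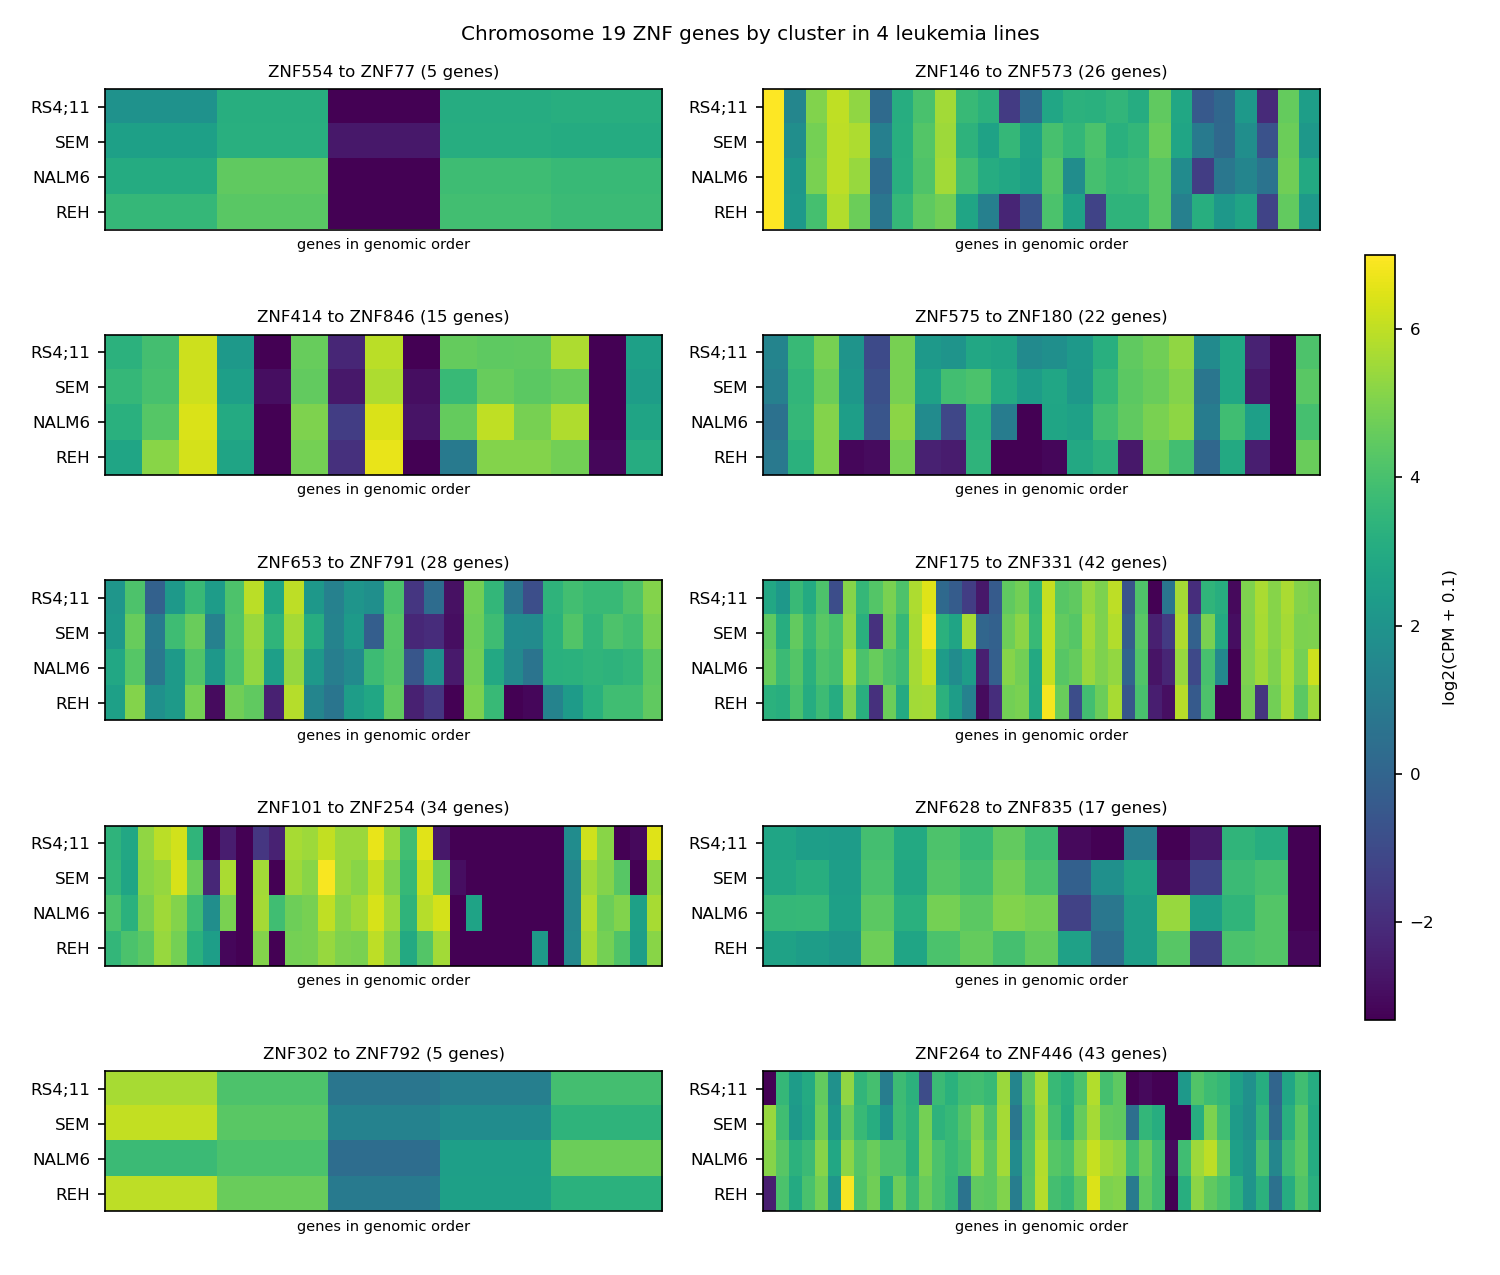
Level of each clustered member (columns, in genomic order within 10 clusters) in each line (rows), as log2(CPM + 0.1) from dark (low) to bright (high). Dark columns are genes low in all 4 lines; dark cells in 1 row only are genes silent in that line, mostly in RS4;11 and REH.

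A gene was called silent in a single line when it had under 0.1 CPM there and at least 1 CPM in each of the other 3. This held for 16 members: 9 in REH, 6 in RS4;11, 1 in SEM and 0 in NALM6. They were 7.77% of the 206 members at 1 CPM or more in at least 3 lines. Over all genes the same rule called 340 of 11319 (3.0%), over the other genes of chromosome 19 it called 2.17% of 644, and over ZNF genes of other chromosomes 2.31% of 216. By line, the members' shares were 4.37% in REH and 2.91% in RS4;11, beside 0.883% and 0.433% of all genes. In NALM6 no member was called, whereas 1.33% of all genes were. In SEM the shares were 0.485% and 0.362%. With 1 library per line there is no replicate check of these counts, and they carry no test.

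**Figure D2:**
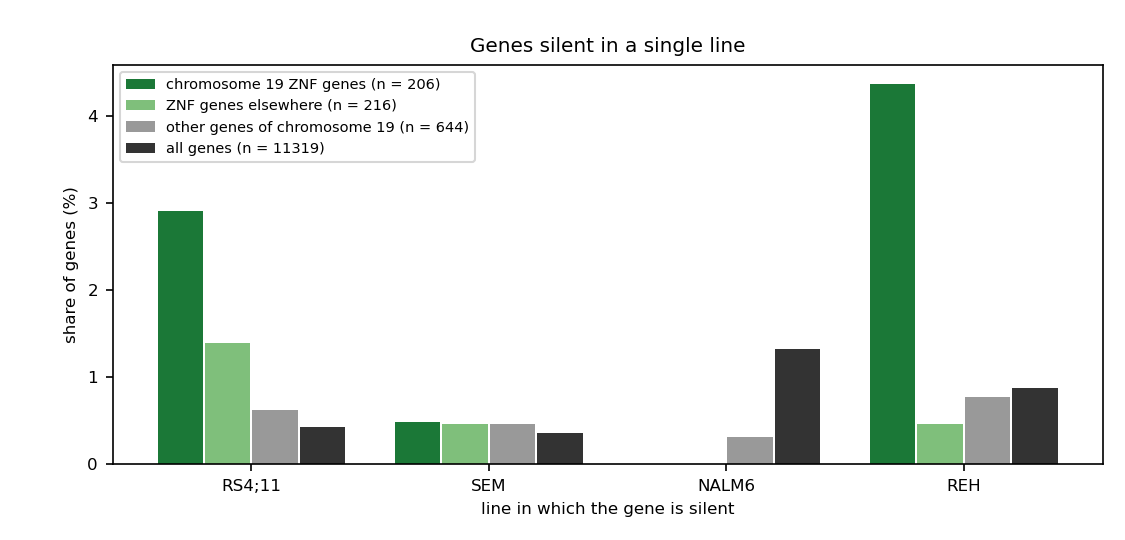
Share of genes silent in a single line (percent, y axis from 0) by the line that is silent, among genes at 1 CPM or more in at least 3 lines; bars are 4 sets of genes with their n in the legend. The chromosome 19 ZNF genes stand at 4.37% in REH and 2.91% in RS4;11 and at 0 in NALM6, where all genes stand at 1.33%.

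The ZNF575 to ZNF180 cluster (44037340 to 45004574, hg19) held 5 of the 9 members silent only in REH. ZNF234 stood at 22.4, 21.2, 22.4 and 0.0594 CPM, the last being 5 counts. The 3 expressing lines were thus nearly level, and the library with the greatest depth had the fewest counts of ZNF234. ZNF284 had 3.47, 6.87 and 6.69 CPM elsewhere and 1 count in REH. ZNF283 had 3.95, 4.37 and 5.42 CPM and 1 count in REH. Both showed the same pattern as ZNF234 at a lower level. ZNF221 had 4.63, 5.92 and 3.10 CPM and 8 counts (0.0950 CPM) in REH. ZNF222 had 6.40, 7.79 and 1.92 CPM and 0 counts in REH.

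A further 3 genes of the same cluster were low in REH and in other lines too. ZNF223 had 2.99 and 5.18 CPM in the t(4;11) pair and 0 counts in both NALM6 and REH. ZNF155 stood at 3.93, 14.7, 0.357 and 0.0712 CPM. ZNF285 was expressed in NALM6 alone, at 5.55 CPM, with 0.0964, 0.0595 and 0.0831 CPM in the other 3. So 8 of the 22 members were switched off in REH, against 1 each in RS4;11, SEM and NALM6. Over all members REH had 18 such genes of 226, or 7.96%, beside 4.97% of all genes, as given above. The 226 reached 1 CPM in some line, whereas the 22 are all members of the cluster. Expressed genes lay among them. ZNF230, between ZNF155 and ZNF222, had 7.25, 17.0, 9.61 and 10.4 CPM. ZNF224, which encodes a KRAB repressor known as a partner of WT1, had 4.67, 4.43, 5.95 and 7.31 CPM, and its neighbour ZNF225 had 9.0, 11.2, 14.5 and 9.74 CPM. ZNF226, next to ZNF234, had 27.1, 25.2, 29.9 and 25.6 CPM. The switched-off genes of REH thus did not form 1 block. ZNF221 and ZNF155 lie next to each other, and the longest unbroken run was ZNF222, ZNF223 and ZNF284 (44529494 to 44591623).

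**Figure D3:**
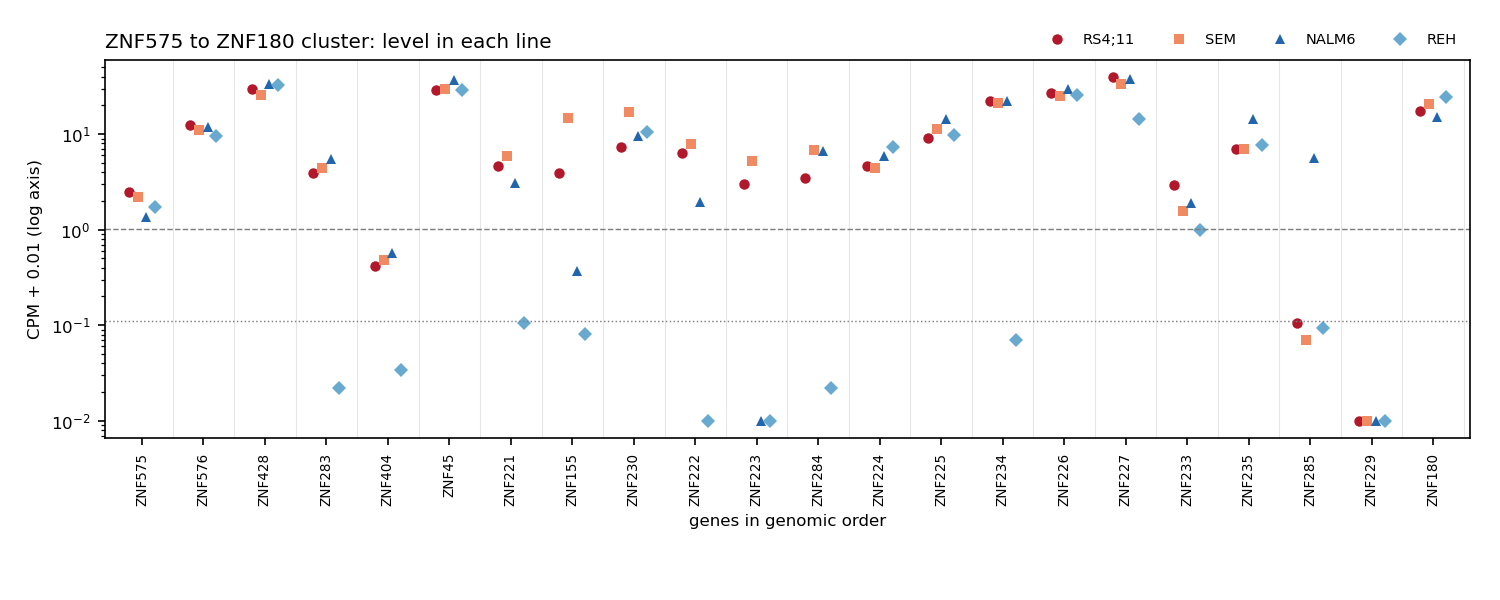
Level of the 22 members of the ZNF575 to ZNF180 cluster in each line, as CPM + 0.01 on a log axis, with genes in genomic order; the dashed line marks 1 CPM and the dotted line 0.1 CPM. REH diamonds drop below the dotted line at ZNF283, ZNF221, ZNF155, ZNF222, ZNF223, ZNF284, ZNF234 and ZNF285, and also at ZNF404 and ZNF229, which are under 1 CPM in every line; they lie with the other lines at ZNF45, ZNF230, ZNF224, ZNF225 and ZNF226.

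Sequence shared with other annotated transcripts limits single values here. Of the 31-base words of the longest annotated transcript, 62.8% for ZNF223 and 47.6% for ZNF284 also occur in transcripts of other genes, against 10.6% for ZNF234 and 22.5% for ZNF222. The source of the shared words was not tested. How reads that fit several genes were counted is not given in the sources used here. ZNF234, silent in REH, and ZNF230, kept in REH, lie in the same cluster but are not adjacent. The sequences before their annotated starts are shown. They are from RefSeq (GRCh38.p14), 5′ to 3′ on the plus strand, with each CpG, the site of DNA methylation, in capitals. The ZNF234 stretch is chr19:44141304-44141553 and the ZNF230 stretch chr19:44002707-44002956.
ZNF234: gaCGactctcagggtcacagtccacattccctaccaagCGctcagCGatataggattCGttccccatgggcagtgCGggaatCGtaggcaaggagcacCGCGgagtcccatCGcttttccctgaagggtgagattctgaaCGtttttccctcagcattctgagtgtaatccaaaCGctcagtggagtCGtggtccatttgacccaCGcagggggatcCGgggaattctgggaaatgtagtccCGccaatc
ZNF230: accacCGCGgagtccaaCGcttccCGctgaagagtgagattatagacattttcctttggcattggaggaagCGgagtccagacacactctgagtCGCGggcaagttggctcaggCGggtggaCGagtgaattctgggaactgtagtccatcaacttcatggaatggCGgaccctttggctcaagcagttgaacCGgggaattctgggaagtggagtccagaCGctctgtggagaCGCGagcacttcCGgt
Both hold 15 CpG in 250 bases, and 42.9% of 35116 promoters in the same table hold at least as many. A CpG (the letters CG, the same on both strands) occurs at least once in 93.9% of them.

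Outside that cluster REH lacked 3 members of the ZNF653 to ZNF791 cluster and 1 of the ZNF175 to ZNF331 cluster. ZNF491 had 5.15, 2.23 and 4.44 CPM elsewhere and 2 counts in REH. ZNF69 had 7.19, 10.7 and 5.57 CPM and 8 counts (0.0950 CPM) in REH. ZNF563 had 1.56, 3.12 and 2.76 CPM and 0 counts in REH. Each lies apart from the others, with expressed genes such as ZNF440 and ZNF700 between them. ZNF442, the neighbour of ZNF563, had 1 count in REH as well but only 0.463 CPM in RS4;11, so it missed the rule. ZNF665 had 8.77, 7.82 and 2.76 CPM and 0 counts in REH. Just outside the 0.1 CPM threshold lay ZNF525, with 51.5, 50.4 and 46.3 CPM elsewhere and 0.190 CPM in REH, and ZNF600, with 22.0, 19.2 and 23.6 CPM and 0.439 CPM in REH. Both are in the ZNF175 to ZNF331 cluster, and both stood lowest in the same line as ZNF665.

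The members silent in RS4;11 alone lay in 3 clusters, and at the end of the long arm it lacked a stretch of genes. From ZNF418 to ZSCAN18 (58433252 to 58629793, hg19, a span of 197 kb) all 8 entries of the table were under 0.1 CPM in RS4;11, and 5 of them reached 1 CPM in another line. ZNF256 had 1 count in RS4;11 and 11.3, 25.3 and 21.9 CPM in the others. ZNF606 had 0 counts in RS4;11 and 8.60, 14.1 and 14.1 CPM in the others. ZNF418, the third silent member, had 0 counts in RS4;11 and 1.28, 14.6 and 1.85 CPM. The stretch also held ZSCAN18, a zinc finger gene with a SCAN domain, at 0.0193, 19, 41.8 and 6.65 CPM. LOC100128398, which has the same deposited locus as ZNF606, had 0 counts in RS4;11 and 1.49, 7.85 and 4.95 CPM. The library kit does not mark strand, and how far the counts of ZNF606 and LOC100128398 are separate was not tested. C19orf18, ZSCAN1 and ZNF135, also in the stretch, were under 1 CPM in every line. Its flanks were expressed in RS4;11: ZNF417 at 21.9 CPM on one side and ZNF329 at 4.63 CPM on the other. ZNF329 was itself the only member silent in SEM alone, with 0 counts there and 4.63, 14.3 and 8.87 CPM elsewhere.

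The sequences before the annotated starts of ZNF418 and ZNF256, neighbours that were silent together in RS4;11, are shown with CpG in capitals. They are from RefSeq (GRCh38.p14), 5′ to 3′ on the minus strand, at chr19:57935403-57935652 for ZNF418 and chr19:57947707-57947956 for ZNF256.
ZNF418: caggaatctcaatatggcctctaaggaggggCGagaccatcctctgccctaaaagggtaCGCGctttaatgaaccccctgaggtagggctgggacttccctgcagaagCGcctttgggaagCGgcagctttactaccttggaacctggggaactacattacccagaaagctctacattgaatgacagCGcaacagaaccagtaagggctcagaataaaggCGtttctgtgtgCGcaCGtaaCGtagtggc
ZNF256: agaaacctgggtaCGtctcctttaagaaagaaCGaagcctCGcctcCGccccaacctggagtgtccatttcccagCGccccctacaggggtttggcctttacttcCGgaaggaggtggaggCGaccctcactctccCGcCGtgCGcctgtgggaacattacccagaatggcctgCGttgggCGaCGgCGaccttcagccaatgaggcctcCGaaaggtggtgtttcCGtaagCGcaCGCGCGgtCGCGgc
ZNF418 has 10 CpG in these 250 bases and ZNF256 has 22. Of all promoters in the table, 52.2% hold at least 10 and 28.0% at least 22. Neighbours that were silent in the same line thus differ in CpG number. Across the family, the median was 13 CpG for the 14 silent members with a promoter in the table, 16 for 157 members expressed in all lines, 17 for 11 members low in all lines and 11 for all promoters.

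In the same cluster RS4;11 also lacked ZNF264, ZIK1 and nearly all of ZNF549. ZNF264 had 0 counts in RS4;11 and 0.0831 CPM in REH, and 41.9 and 34.3 CPM in SEM and NALM6. ZIK1, a KRAB zinc finger gene without a ZNF number, had 0 counts in RS4;11 and 41.9, 40.6 and 12.2 CPM elsewhere. ZNF549 had 0.424 CPM in RS4;11 and 28.8, 30.6 and 25.1 CPM in the others. The other members between them were expressed in RS4;11, among them ZNF304 at 23.1 CPM and ZNF548 at 38.6 CPM. AURKC, the entry next to ZNF264, had 0, 0.595, 0.557 and 0 CPM. VN1R1, also in the interval, had 0.443 CPM in RS4;11.

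In the ZNF101 to ZNF254 cluster on the short arm, 8 of 34 members were switched off in RS4;11, 4 in SEM, 3 in REH and 1 in NALM6. Over all members the counts were 17 in RS4;11, 7 in SEM, 18 in REH and 2 in NALM6, of the 226 that reached 1 CPM in any line. The shares over all genes were 5.36% in RS4;11, 4.11% in SEM, 4.97% in REH and 7.97% in NALM6. The 34 are all members of the cluster, whatever their level. ZNF681 had 0 counts in RS4;11 and 19.7, 33.0 and 17.8 CPM in the others. ZNF43 had 3 counts (0.0578 CPM) in RS4;11 and 24.1, 80.5 and 47.0 CPM in the others. Both were silent in RS4;11 alone. ZNF486 was on in SEM and NALM6, at 51.2 and 30.4 CPM, and off in RS4;11 and REH, at 0.0771 and 0.0119 CPM. ZNF737 was just outside the threshold in RS4;11, at 0.212 CPM against 46.8, 48.6 and 33.4 CPM. Some members were on in 1 line only. ZNF626 had 14.1 CPM in NALM6, 0.0964 CPM in RS4;11 and 0 counts in SEM and REH. ZNF257 had 6.20 CPM in NALM6 and 0 counts in the other 3 lines, and ZNF492 had 4.83 CPM in REH and 0 counts in the other 3.

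From ZNF43 to ZNF99 (21987751 to 22966973, hg19, 979 kb) all 9 entries of the table were under 0.1 CPM in RS4;11, but 6 of them never reached 1 CPM in any line. ZNF91 and ZNF93, which encode repressors of retrotransposons, were expressed in every line. ZNF91 had 76.2, 46.8, 57.4 and 50.7 CPM. ZNF93 had 77.6, 83.2, 33.7 and 28.4 CPM, so its groups did not overlap.

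**Figure D4:**
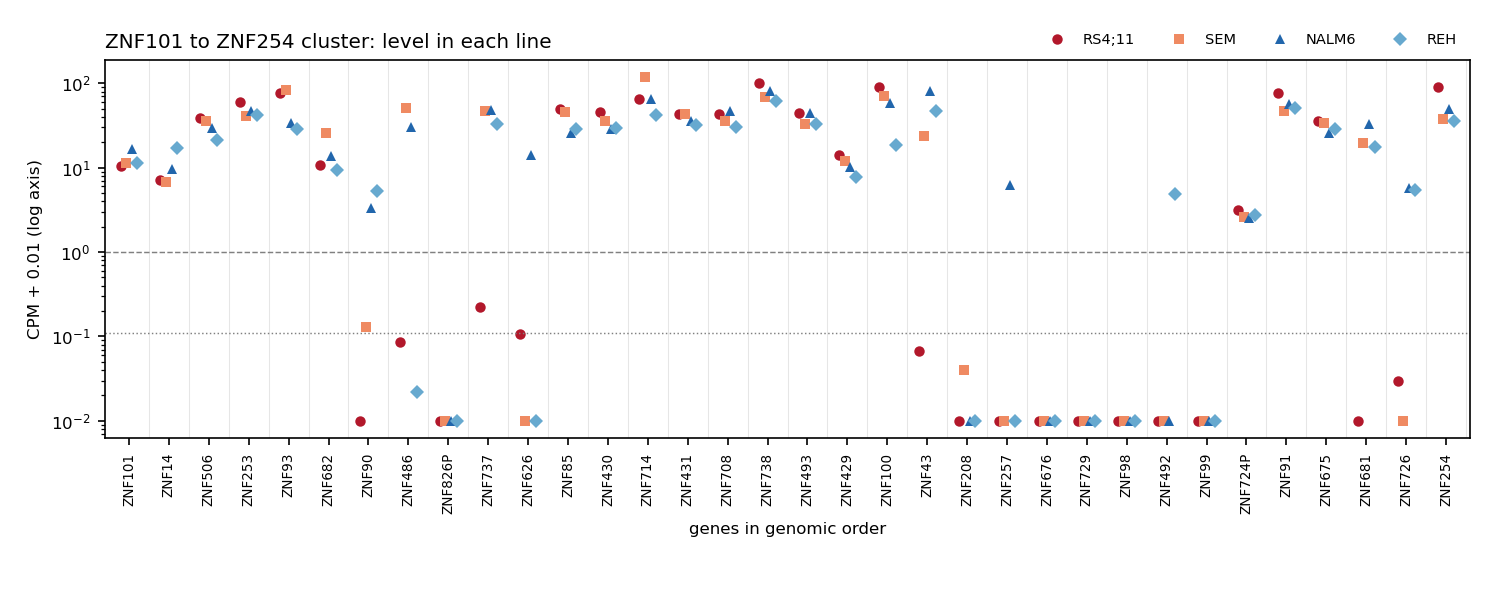
Level of the 34 members of the ZNF101 to ZNF254 cluster in each line, as CPM + 0.01 on a log axis, with genes in genomic order; the dashed line marks 1 CPM and the dotted line 0.1 CPM. Most genes lie together in all 4 lines, RS4;11 alone drops at ZNF43 and ZNF681, and ZNF257 and ZNF492 are each present in 1 line.

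In the ZNF628 to ZNF835 cluster RS4;11 lacked 2 pairs of neighbours. ZNF582 had 0 counts in RS4;11 and 3.48, 1.63 and 1.20 CPM elsewhere, and ZNF542 beside it had 0.0193, 0.803, 0.312 and 5.89 CPM. ZNF583, the next gene, was expressed in all lines, at 2.0, 6.45, 5.48 and 5.38 CPM. ZNF667 was off in both t(4;11) lines, with 0 counts in RS4;11 and 1 count in SEM, and had 42.8 and 20 CPM in NALM6 and REH. The adjacent entry LOC100128252 showed the same split, with 0.0193 and 0.0297 CPM against 21.8 and 8.31 CPM. The deposited loci of ZNF667 and LOC100128252 do not overlap, as the first ends at 56988770 and the second starts at 56989243 (hg19). The library kit does not mark strand, so reads are not separated by strand where genes overlap. ZNF471 stood at 0.0578, 0.327, 5.37 and 0.285 CPM.

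A list of 10 members was set for description, because they are known as methylated in tumours or for a known role. Of these, 7 were at 1 CPM or more in all lines, 2 were switched off in some line (ZNF43 and ZNF667, given above) and 1, ZNF568, lay between the thresholds in REH. ZNF671 had 20.6, 17.2, 18.3 and 18.8 CPM. ZNF154 had 2.49, 1.61, 3.08 and 1.99 CPM, and ZNF382 had 1.10, 2.08, 1.14 and 1.57 CPM. None of these 3 split the lines. ZNF568, whose mouse counterpart represses a placental transcript of Igf2, had 1.10, 5.95, 5.64 and 0.534 CPM. ZNF331, an imprinted gene, had 30.3 and 32.0 CPM with t(4;11) and 73.4 and 44.9 CPM without. The groups of ZNF331 did not overlap.

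Per length, the highest values belonged to a few members. In the authors' deposited Cuffdiff table, ZNF146, whose protein consists almost wholly of zinc fingers, had an FPKM of 63.7 in the t(4;11) group and 55.0 in the control group. ZNF83 had 26.3 and 32.3 FPKM, ZNF121 14.9 and 29.8, ZNF266 17.3 and 26.1 and ZNF253 23.7 and 19.3, in the same order and from the same deposited table. These are group values of the authors with no spread per line. By count, ZNF146 had 243, 220, 216 and 212 CPM, a narrow range over all lines.

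Pairs of lines were compared by the number of members at least 4-fold apart on CPM + 0.1, with the higher line at 1 CPM or more. RS4;11 and REH were farthest apart, with 43 of 217 members (19.8%, beside 16.6% of all genes). SEM and NALM6 were closest, with 19 of 223 members (8.52%, beside 16.3% of all genes), although they belong to different groups. The 2 t(4;11) lines differed in 22 of 216 members (10.2%, beside 10.1%), and the 2 controls in 31 of 223 (13.9%, beside 15.9%). For RS4;11 and NALM6 it was 29 of 223 (13%, beside 13.9%), and for SEM and REH 34 of 218 (15.6%, beside 18.4%). Most differences within a group lay in 1 direction. Of the 22 in the t(4;11) pair, 17 were lower in RS4;11 (7.87%, beside 6.09% of all genes), and of the 31 in the control pair, 27 were lower in REH (12.1%, beside 5.29%). Across members, Pearson's r of log2(CPM + 1) ran from 0.752 for RS4;11 and REH to 0.855 for SEM and NALM6 (n = 251 genes, which share clusters and sequence and are not independent). Over all genes tested it ran from 0.837 for SEM and REH to 0.928 for RS4;11 and SEM, with 0.860 for SEM and NALM6.

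The comparison the study was designed for, lines with against lines without t(4;11), gave no member that passed the test. edgeR's quasi-likelihood test, fitted on all genes, called 0 of the 227 members tested at an adjusted p under 0.05, and 0 of all 13844 genes (0.00%). At an unadjusted p under 0.05 there were 5 members higher (2.20%) and 7 lower (3.08%) with t(4;11), beside 6.19% and 5.86% of all genes. The smallest adjusted p of a member was 0.295 (edgeR quasi-likelihood). Without NALM6 35 members had an unadjusted p under 0.05 (15.3%, beside 14.7% of all genes). At an adjusted p under 0.05 DESeq2 called 11 members on the same counts (4.74%, beside 11.3% of all genes) and edgeR's exact test 3 (1.32%, beside 2.95%). The median log2 fold change was -0.03 over the members tested and -0.02 over all genes.

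The authors' deposited tables called 5 members between them, and only ZNF223 was in both. Their deposited DESeq table called 3 members (1.22%, beside 1.56% of all genes), ZNF667 (adjusted p = 5.04e-07), ZNF726 (adjusted p = 0.00804) and ZNF223 (adjusted p = 0.0150). Their deposited Cuffdiff table called 3 (1.28%, beside 2.34%), ZNF223 and ZNF257 (q = 0.00418 each) and ZNF492 (q = 0.0134). ZNF667, with the smallest adjusted p in the deposited DESeq table, had a q of 0.864 in the deposited Cuffdiff table, and ZNF726 had a q of 0.742. ZNF726 had 1 count and 0 counts in the t(4;11) lines and 5.75 and 5.44 CPM in the controls. ZNF257 and ZNF492, called in the deposited Cuffdiff table, were each counted in 1 control line only, as given above, and had an adjusted p of 1 in the deposited DESeq table. Each of the 3 members called in the deposited Cuffdiff table was listed there at 0 FPKM in 1 group.

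Of members with 1 CPM or more in both lines of a group, 38 of 211 had both t(4;11) values above both control values (18%, beside 20.1% of all genes) and 61 had both below (28.9%, beside 30%). At column-sum scaling the members thus leaned lower as all genes did. With TMM-scaled library sizes the member counts were 51 and 54, so this lean depends on the scaling. The shares of all genes given here are for column-sum scaling only. With 2 lines against 2 an exact permutation test cannot give a two-sided p under 0.333. Leaving out RS4;11, SEM, NALM6 or REH gave 70, 58, 82 or 54 higher and 76, 98, 87 or 110 lower members. Fewer lines then have to be separated. No shares of all genes are given for these settings, so the counts cannot be set against the background.

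The same counts were taken by cluster. The shares of all genes, 20.1% higher and 30% lower, are at column-sum scaling. They cover only genes at 1 CPM or more in both lines of a group, whereas cluster sizes include members under that level. In ZNF264 to ZNF446, 23 of 43 members stood lower in the translocated pair and 0 higher (22 and 0 with TMM scaling), with a median log2 fold change of -0.43. In ZNF628 to ZNF835 it was 5 lower and 0 higher (5 and 0 with TMM), and in ZNF414 to ZNF846 8 lower and 1 higher (7 and 1 with TMM). ZNF175 to ZNF331 had 10 higher and 3 lower (14 and 1 with TMM), ZNF101 to ZNF254 had 9 higher and 4 lower (9 and 4 with TMM) and ZNF653 to ZNF791 had 8 higher and 2 lower (10 and 2 with TMM). ZNF146 to ZNF573 had 5 higher and 4 lower (8 and 3 with TMM), ZNF575 to ZNF180 5 and 3 (7 and 3 with TMM), ZNF302 to ZNF792 0 and 1 (0 and 1 with TMM), and ZNF554 to ZNF77 0 and 4 (0 and 4 with TMM). The difference between clusters was not tested.

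**Figure D5:**
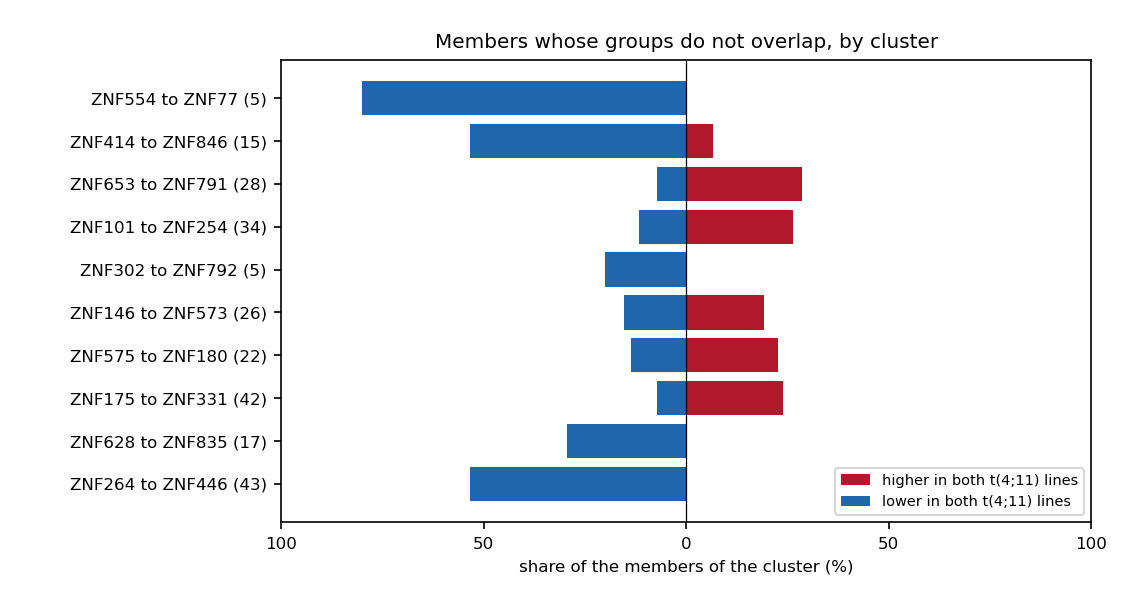
Share of the members of each cluster (percent of its members, given in brackets) whose t(4;11) values both lie above (right) or below (left) the control values, at column-sum scaled CPM. ZNF264 to ZNF446 (23 of 43 members), ZNF628 to ZNF835 (5 of 17), ZNF554 to ZNF77 (4 of 5) and ZNF302 to ZNF792 (1 of 5) have bars to the left only.

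Among single members with separated groups, ZNF358, outside the clusters, differed little within groups. It had 7.06, 7.02, 25.9 and 25.1 CPM (7.04 ± 0.0256 against 25.5 ± 0.560 CPM, SD, n = 2 each). Its log2 fold change was -1.76 (SE 0.33, edgeR quasi-likelihood adjusted p = 0.313). ZNF555 had 8.69 and 9.10 CPM against 22.2 and 20.5 CPM, a log2 difference of -1.16 (SE 0.34, adjusted p = 0.382, edgeR). ZNF772 had 1.95 and 3.78 CPM against 17.2 and 8.35 CPM, and ZNF90 had 0 and 0.119 CPM against 3.30 and 5.36 CPM. In these 4 genes both controls were above both t(4;11) lines.

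In the other direction ZNF93, expressed in all lines, stood at 80.4 ± 3.98 against 31 ± 3.75 CPM (SD, n = 2 each) and a log2 difference of 1.48 (SE 0.20, adjusted p = 0.307, edgeR). ZNF570 had 7.04 and 6.57 CPM against 3.05 and 2.15 CPM, a log2 difference of 1.49 (SE 0.54, adjusted p = 0.427, edgeR). ZNF155, ZNF222, ZNF223 and ZNF665, described above with the genes low in REH, were also among the 6 most separated members in this direction. Their control values include REH, where ZNF222, ZNF223 and ZNF665 had 0 counts and ZNF155 had 0.0712 CPM. In NALM6, ZNF223 also had 0 counts and ZNF155 had 0.357 CPM. None of these members passed the edgeR quasi-likelihood test.

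The partners through which KRAB proteins repress were present in all lines with 1 exception. Of 22 listed genes 21 had 1 CPM or more in every line. TRIM28, the corepressor itself, had 500, 560, 548 and 407 CPM. SETDB1 had 105, 94.8, 107 and 98.4 CPM, and CBX5, a heterochromatin protein, had 820, 945, 972 and 985 CPM. The exception, named after its values were seen, was CBX1, another heterochromatin protein, with 109, 158, 0.513 and 176 CPM, lowest in NALM6. At an unadjusted p under 0.05 edgeR's quasi-likelihood test gave 0 of the 22 higher and 2 lower, beside 6.19% and 5.86% of all genes. At an adjusted p under 0.05 it called 0 of the list and 0 of all genes. ATRX, a chromatin remodeller, had 198 and 200 CPM against 348 and 368 CPM. ZNF274, which binds the far ends of ZNF genes and recruits SETDB1, is both a partner and a member; it had 18, 8.63, 44.8 and 37.3 CPM (log2 fold change -1.51, SE 0.48, edgeR adjusted p = 0.399). The median log2 fold change of the list was -0.06.

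Zinc finger genes of chromosome 19 without a ZNF number were listed as well. Of 23, 11 were at 1 CPM or more in all lines, 5 were under 0.1 CPM in all lines and 2 were silent in a single line, ZIK1 and ZSCAN18, both in RS4;11 as given above. ZFP112, which lies in the ZNF575 to ZNF180 cluster, was on in SEM alone, at 5.29 CPM, with 0, 0.0446 and 0.0119 CPM in RS4;11, NALM6 and REH. At an unadjusted p under 0.05 the edgeR quasi-likelihood test gave 0 of 15 higher and 1 lower, beside 6.19% and 5.86% of all genes. It called 0 at an adjusted p under 0.05, as over all genes. Their median log2 fold change was -0.01.

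The singly silent members did not stand out in the number of zinc fingers. In the longest open reading frame of the annotated transcripts, the median was 13 fingers over the 16 silent members (range 8 to 19) and 12 over 173 members expressed in all lines (range 0 to 31). The median share of 31-base words found in other genes was 11.7% for the silent members and 7.53% for those expressed in all lines. Neither was tested.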

How the data were processed

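RNA-seq of 4 cell lines was analysed, with 1 library per line. Per the submitters' processing notes, CASAVA 1.8.2, TopHat2 2.0.4, HTSeq, DESeq and Cuffdiff were used with hg19; the order of the steps, the settings, the annotation and the handling of reads fitting several genes were not given in the sources used here. The first of 2 deposited tables holds, per the file headers, raw HTSeq counts per gene, the authors' DESeq normalized signal (not used for levels) and their p-values. The other deposited table holds the authors' Cuffdiff FPKM per group, log2 fold changes and q-values. Tables were joined by symbol (23165 genes; repeated symbols and symbols turned into dates were left out). Loci are those Cuffdiff grouped and can span neighbouring genes.

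CPM was computed here from each deposited count and the sum of all counts of its library. Groups were compared with edgeR 4.0.16 (R 4.3.3) over the deposited counts of all 23368 entries, with TMM, filterByExpr and the quasi-likelihood test, two-sided, Benjamini-Hochberg adjustment and a threshold of 0.05; 13844 genes were tested with 2 residual degrees of freedom, and the code was tested on simulated data. Standard errors are the fold change divided by the root of F. Lines served as replicates, numbered by listing order only, so p-values measure the spread between different leukemia lines. Alternatives were DESeq2 1.42.0, edgeR's exact test, RLE factors, no low-count filter, other thresholds and leaving out each line. Promoters were matched by RefSeq symbol or synonym (213 of 251) and transcripts by GENCODE 29 symbol (251 of 251). Fingers were counted by a search for the classical spacing of cysteines and histidines.

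Named genes were the 14 singly silent members with the highest level elsewhere, the 6 most separated members per direction, those called in a deposited table, the 5 highest by FPKM and a fixed list of 10. Other members are named where they lie in a described stretch, near a threshold or in a described state, and these were chosen after their values were seen. The members and lists were chosen with earlier results of these data known.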

Additional observations from a re-analysis of the deposited data

How the results depend on the processing

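Of the members at an adjusted p under 0.05, edgeR's quasi-likelihood test called 0, DESeq2 called 11 and edgeR's exact test 3; with RLE factors, no low-count filter or any line left out the quasi-likelihood test called 0 (range 0 to 0). Over all genes DESeq2 called 1593 and the exact test 408, and without the low-count filter the quasi-likelihood test called 5. At an unadjusted p under 0.05 it gave 12 members (5.29%, beside 1668 of 13844 genes), DESeq2 36 (14.7%, beside 16.7% of all genes), and leaving out a line 9 to 35 (3.86% to 15.3%, beside 5.35% to 14.7%). For the counts of members whose groups do not overlap, leaving out a line was an alternative chosen after seeing the data. It gave 54 to 82 members higher and 76 to 110 lower in the t(4;11) lines that remained, with no share of all genes beside them. In the edgeR fits the lone line of a group is then assumed to vary like the others. The 12 members with the most separated groups had 96 alternative values, of which 13, all by DESeq2 or the exact test, passed the threshold; their sign was fixed by how they were chosen. The 16 singly silent members were all kept with TMM scaling, 13 were kept with 3 counts or fewer as the limit (without ZNF69, ZNF221 and ZNF234), 16 and ZNF525 were called under 0.2 CPM, and 12 were kept at 2 CPM in the other lines. A gap of 1000 kb gave 9 clusters in place of 10. No paired analysis was possible because the labels number no replicates and pair no lines. At the depth of SEM, 0.1 CPM is 3.36 counts, so silence there is the least certain.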

Other observations

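The ZNF genes of other chromosomes give the same measures outside the clusters. Of 289, 206 had 1 CPM or more in all lines, 30 had under 0.1 CPM in all lines and 24 were low in at least 1 line and expressed in another, which is 9.96% of those that reached 1 CPM in any line, beside 13.7% of the chromosome 19 members. By line, 3 were silent only in RS4;11, 1 only in SEM, 0 only in NALM6 and 1 only in REH.

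Some members differed widely between lines without reaching the silent range in any. ZNF302 had 49.8, 65.4 and 63.2 CPM in RS4;11, SEM and REH and 13.2 CPM in NALM6. ZNF548 had 38.6, 24.6 and 36.3 CPM in RS4;11, SEM and NALM6 and 119.9 CPM in REH. ZNF528 had 50.4 CPM in SEM and 0.270, 5.26 and 2.27 CPM in RS4;11, NALM6 and REH. ZNF841 had 18.6 and 23.9 CPM in RS4;11 and NALM6 and 0.178 and 0.166 CPM in SEM and REH. These genes were chosen after their values were seen.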
